A study of Mus musculus with 24 samples.

Results

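The nuclear genes for subunits of respiratory complexes I, II and III and of the ATP synthase were followed in endothelium-enriched cells of mouse aorta and skeletal muscle. Members were chosen by gene symbol alone, as every array gene beginning with Ndufa, Ndufb, Ndufc, Ndufs, Ndufv, Uqcr or Atp5, together with Sdha, Sdhb, Sdhc and Sdhd. Assembly factors named Ndufaf were left out. Of 18749 genes that the array could name, 66 met this rule, on 86 probes. They comprise 37 genes named for complex I, 4 for complex II, 8 for complex III and 17 for the ATP synthase. The gene table used for naming holds 70 protein-coding genes of these names, and the 4 with no probe were Ndufa4l2, Ndufb1, Ndufb4b and Ndufb4c. Where a gene had several probes, the brightest one in the tissue was used.

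Male C57BL/6J wild-type (WT) mice and mice lacking galectin-3 in every cell (Lgals3-/-, B6.Cg-Lgals3tm1Poi/J, here KO) were put on a high-fat diet (HFD, 60% of calories from fat) or chow (12%) from 8 weeks of age, for 8 weeks. Live CD105+/CD45- cells were sorted from the aorta and from pooled hindlimb muscles (plantaris, gastrocnemius and biceps femoris). Each of the 8 groups of strain, diet and tissue held 3 samples, one from each of 3 independent experiments and each a pool of 3 to 4 animals. The amplified RNA was hybridised to 24 single-colour Agilent arrays. Because each sample is a pool, the spread between samples does not give the spread between mice.

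Labels and cell content were checked before the members were read. The 12 endothelial markers, among them Eng, which encodes the sort antigen CD105, were well above background on all 24 arrays, with a summed signal between 7.34 and 9.01 in aorta and between 8.96 and 9.64 in muscle (log2, relative to the 75th percentile of the array's spots). Markers of other cells were also present. The 13 skeletal muscle fibre markers summed to between 5.0 and 7.98 in muscle and between 0.97 and 3.38 in aorta. The 6 fibroblast markers summed to between 7.81 and 8.99 in aorta and between 4.10 and 7.32 in muscle. In aorta, 7 of the 8 adipocyte markers were well above background on every array, with Lep below it on all 12, and their sum was 6.52 to 8.35 on chow against 2.42 to 4.06 on HFD. The Lgals3 probe was not lower in KO (2.40 to 6.31, against 0.90 to 4.98 in WT), and where that probe lies in the gene was not analysed here. The study reports that part of the gene is deleted. It checked the loss in DNA, in RNA inside the deleted part, and in protein. At 34 probes that separated the strains in experiments 2 and 3, with WT at 0 and KO at 1, the experiment 1 HFD arrays labelled KO lay at 0.39 (aorta) and 0.44 (muscle), and those labelled WT at 0.17 and 0.41. Strain directions that rest on experiment 1 are therefore those of the labels, and values without it are given where they differ.

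Complex I takes electrons from NADH, complex II takes them from succinate, and both pass them through ubiquinone to complex III. The proton gradient built by the chain drives the ATP synthase. Endothelial cells make much of their ATP by glycolysis and keep mitochondria for signalling and biosynthesis as well as for respiration. Transcription of the nuclear subunit genes is known to use nuclear respiratory factor 1 (NRF1), GA-binding protein of the ETS family, YY1 and the estrogen-related receptors (ERR).

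Short core motifs of these factors were searched on both strands of the 250 bases before the annotated start, in RefSeq promoters of build GRCm38.p6, a build later than that of the array design. The table held 61 promoters for 56 of the 66 genes. The ETS motif CCGGAAG was in 10 of the 61 (16.4%, against 6.9% of all 32851 promoters). The NRF1 motif GCATGCGC was in 7 (11.5%, against 2.3%). The ERR motif CAAGGTCA was in 3 (4.9%, against 1.3%) and the YY1 motif AAGATGGCG in 1 (1.6%, against 0.6%). At least 1 of them was in 18 promoters (29.5%, against 10.6%). An NRF1 site that is nearly its own reverse complement can match on both strands and was then counted once per promoter. A match is a string of letters and was not tested as a binding site.

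The promoters of 4 members on which the tissue and diet results below turn are printed 5′ to 3′, ending at the base before the start, with motif matches in capitals.
Ndufc2, chr7:97399753-97400002 (plus strand): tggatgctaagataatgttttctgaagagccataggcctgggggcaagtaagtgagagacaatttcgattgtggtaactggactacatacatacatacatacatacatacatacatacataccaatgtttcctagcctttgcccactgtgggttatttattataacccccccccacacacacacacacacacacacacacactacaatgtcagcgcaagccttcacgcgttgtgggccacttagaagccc
Sdhb, chr4:140961021-140961270 (plus strand): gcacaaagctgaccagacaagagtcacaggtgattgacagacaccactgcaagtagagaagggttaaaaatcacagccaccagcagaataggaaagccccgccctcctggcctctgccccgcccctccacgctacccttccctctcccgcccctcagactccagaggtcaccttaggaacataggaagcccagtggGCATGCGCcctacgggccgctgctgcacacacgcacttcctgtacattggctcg
Ndufa8, chr2:36049339-36049588 (minus strand): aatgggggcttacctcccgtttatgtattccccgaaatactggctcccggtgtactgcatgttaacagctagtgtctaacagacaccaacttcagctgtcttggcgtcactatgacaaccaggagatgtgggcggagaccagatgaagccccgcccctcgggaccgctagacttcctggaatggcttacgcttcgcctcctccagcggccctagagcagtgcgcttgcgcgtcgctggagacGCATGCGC
Ndufb7, chr8:83566508-83566757 (plus strand): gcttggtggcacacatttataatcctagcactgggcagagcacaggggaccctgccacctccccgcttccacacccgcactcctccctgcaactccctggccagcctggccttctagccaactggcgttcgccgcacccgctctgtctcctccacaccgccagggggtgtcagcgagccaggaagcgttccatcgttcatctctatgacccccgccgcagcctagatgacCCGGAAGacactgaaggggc
Sdhb and Ndufa8 each held 1 NRF1 match and Ndufb7 held 1 ETS match. In Ndufc2 none of these letters occurred in this window.

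All 66 members were well above background on all 24 arrays and none was saturated, so every member was tested in both tissues and no filter removed one. The median over members lay between 4.13 and 5.63 on the log2 scale, with a median over arrays of 4.80, where 0 is the array's 75th percentile. The highest array was the KO HFD muscle array of experiment 2 (5.63) and the lowest was the KO HFD aorta array of experiment 3 (4.13).

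Arrays of the same group differed by as much as the groups did. In aorta, KO HFD arrays gave member medians of 4.50, 4.97 and 4.13 in experiments 1, 2 and 3, and KO chow arrays gave 5.02, 4.58 and 4.39. WT HFD aorta arrays gave 4.97, 4.75 and 4.3, and WT chow arrays 4.90, 4.36 and 4.40. In muscle, KO HFD arrays gave 5.03, 5.63 and 4.71, and KO chow arrays 5.0, 4.83 and 4.87. WT HFD muscle arrays gave 4.72, 5.15 and 4.76, and WT chow arrays 4.87, 4.88 and 4.73. The 4 groups overlapped in each tissue. Once group means were removed, a member correlated with the median of the other members at a median r of 0.86 over the 24 arrays, with 39 members above 0.8. The arrays share a common scale, however. The same deviations of the member median followed the 95th percentile of all spots of the array (r = 0.97) and the median of the cytosolic ribosomal protein genes (r = 0.93). These are descriptions over 24 arrays that share depth and scaling. After quantile normalization, which gives every array the same distribution, member medians spanned 4.50 to 5.05, the median r fell to 0.39 and 1 member stayed above 0.8.

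**Figure D1:**
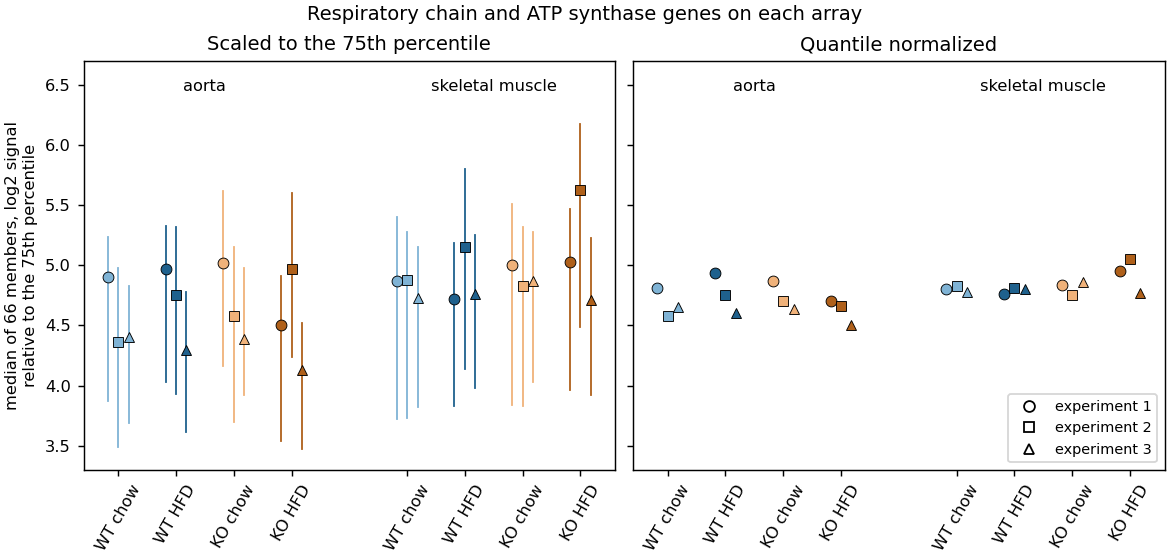
Median log2 signal of the 66 member genes on each of the 24 arrays, relative to the array's 75th percentile (y axis), by group and tissue (x axis); symbols mark the 3 experiments. On the left, bars give the lower and upper quartiles over members and the medians span 4.13 to 5.63; on the right, after quantile normalization of the same arrays, they span 4.50 to 5.05.

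On this scale 8 members had negative correlations with the others. Among them were Ndufa10 (r = -0.56 with the median of the rest), Ndufv2 (-0.38), Sdha (-0.30), Sdhd (-0.22), Atp5pb (-0.21) and Ndufs1 (-0.20), and Ndufc2 had an r of 0.00. After quantile normalization 18 members had negative ones, among them Atp5j (0.83 before and -0.31 after) and Uqcrc2 (0.91 and -0.16), so which members stand apart depends on the scaling. Sdha is the flavoprotein of complex II, while Ndufs1 and Ndufv2 are core subunits of complex I. Ndufa10, Ndufv2, Sdha, Sdhd, Ndufs1 and Atp5pb were also dimmer members, with mean signals of 1.03, 1.55, 1.87, 2.78, 3.05 and 3.54. Ndufc2 was not (5.06), and the dim member Ndufa11 (0.53) had an r of 0.74. The part of signal level in these correlations was not tested.

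HFD was compared with chow within each strain and tissue to ask whether the diet changed the respiratory genes of endothelium. No member passed an adjusted p of 0.05 in any of the 4 diet comparisons (limma, Benjamini-Hochberg over all probes tested). In WT aorta the members' median difference was 0.11 on the log2 scale (SD 0.20 over 3 experiments), with 48 of 66 above 0. In KO aorta it was -0.16 (SD 0.53), with 48 of 66 below 0. In WT muscle it was 0.10 (SD 0.26), with 48 above 0, and in KO muscle 0.21 (SD 0.42), with 53 above 0. The medians of all probes tested were 0.03, -0.01, -0.02 and 0.00. Under the 3 other scalings tried, no member median of the 15 comparisons made here took the opposite sign, medians that rounded to 0 aside. Within a tissue, the deposited table equals these values plus nearly the same constant on each array, so its agreement there was fixed beforehand. The direction counts in muscle did depend on the scaling. Of the 37 complex I genes, 24 lay above 0 in WT muscle and 28 in KO muscle. After quantile normalization 17 and 23 did. In aorta the counts were 29 in WT and 13 in KO, and 26 and 14 after it. In each comparison the experiments disagreed in sign. KO aorta gave member medians of -0.55, 0.46 and -0.32 in experiments 1, 2 and 3, and KO muscle gave 0.03, 0.69 and -0.08. With 1 experiment left out the WT aorta median ran from 0.01 (without experiment 2) to 0.22, and the WT muscle median from -0.02 (without experiment 2) to 0.23. Without experiment 1 the KO aorta median was 0.06, and without the KO HFD muscle array of experiment 2 the KO muscle median was -0.01.

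At an unadjusted p under 0.05, 0 members were counted in WT aorta, 1 in KO aorta (Ndufc2), 0 in WT muscle and 1 in KO muscle. Over all probes tested the same rule called 5.77%, 11.3%, 12.1% and 8.49%, so these counts were below the background. At the adjusted threshold, all probes gave 0%, 0%, 0% and 0.00389% in the same order. The 95% intervals bound the changes. Intervals lay wholly within 1 log2 unit of 0, a change of less than one doubling either way, for 52 members in WT aorta, 47 in KO aorta, 58 in WT muscle and 44 in KO muscle. For the mean of both strains this held for 64 members in aorta and 66 in muscle.

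**Figure D2:**
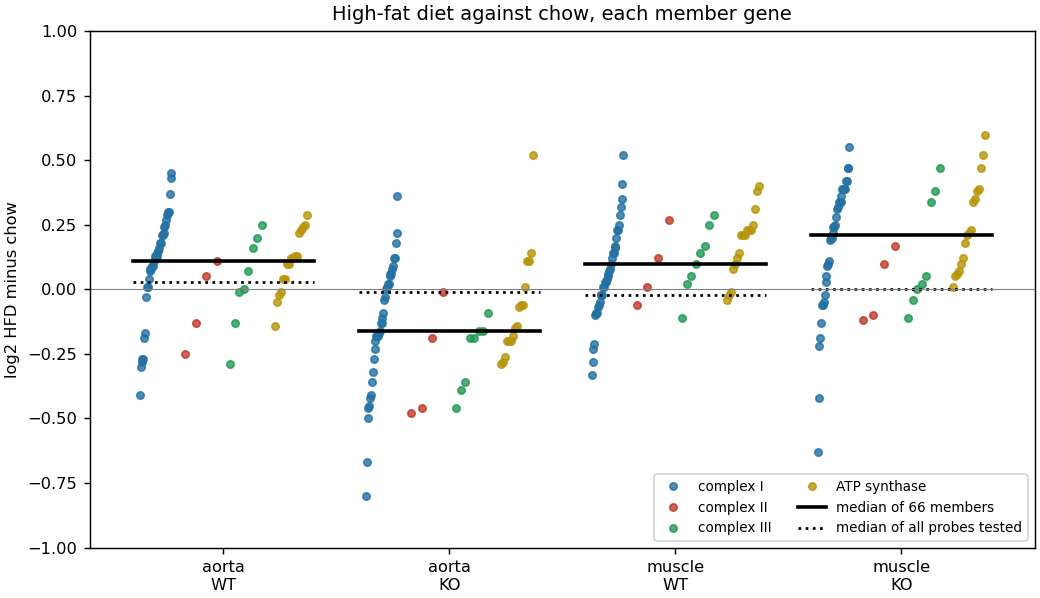
Difference between HFD and chow (y axis, log2) for each of the 66 member genes in each tissue and strain (x axis), coloured by complex, from the limma fit; solid lines mark the member medians and dotted lines the medians of all probes tested. The member medians are 0.11, -0.16, 0.10 and 0.21 from left to right, and no member passed an adjusted p of 0.05.

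Averaged over the strains, the diet difference in aorta had a member median of -0.01 (30 above 0, 36 below), and 1 member, Ndufc2, had an unadjusted p under 0.05. Over all probes 15.1% had one, and 0.0309% passed the adjusted threshold. The members with the largest differences were Ndufc2 (-0.55 ± 0.20 SE), Ndufa10 (-0.47 ± 0.22), Ndufv2 (-0.41 ± 0.17), Ndufa11 (0.40 ± 0.27) and Uqcrfs1 (-0.38 ± 0.26), all with adjusted p of 0.292 or more by limma. Ndufa10 and Ndufa11 are accessory subunits of complex I, and Uqcrfs1 is the Rieske iron-sulphur protein of complex III. In WT aorta the smallest unadjusted p was that of Ndufv2 (-0.41 ± 0.24, limma adjusted p = 0.925).

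In muscle the mean diet difference had a member median of 0.15 (54 above 0, 12 below), which was 0.06 after quantile normalization (44 above 0) and -0.03 without experiment 2 (27 above 0). Each of the 17 ATP synthase genes lay above 0 (0.01 to 0.50), against 29 of 37 complex I genes, 6 of 8 complex III genes and 2 of 4 complex II genes. After quantile normalization 16 of the 17 did. One member, Atp5mpl (a small membrane subunit of the ATP synthase), had an unadjusted p under 0.05, where 16.4% of all probes did and 0.288% passed the adjusted threshold. At the brightest probes the largest differences were Atp5mpl (0.50 ± 0.20), Ndufb5 (0.43 ± 0.23), Ndufs8 (0.39 ± 0.19), Atp5e (0.39 ± 0.23) and Atp5g1 (0.37 ± 0.21), with adjusted p of 0.284 or more by limma. In WT muscle the smallest unadjusted p was that of Ndufv3 (0.41 ± 0.25, limma adjusted p = 0.571). The dimmer probes of Ndufv3 were read for the mean of both strains, where they had the opposite sign (-0.70 and -0.33, against 0.20).

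Whether the tissues differed in their diet response was tested in 1 fit over the 24 arrays. Differences of aorta minus muscle were below 0 for 55 of 66 members, with a median of -0.19 against 0.00 over all probes. The median was -0.13, -0.17 and -0.20 in experiments 1, 2 and 3. It was -0.13 after quantile normalization (48 below 0) and -0.07 without the KO HFD muscle array of experiment 2 (43 below 0). No member passed the adjusted threshold (0% of all probes did), and 1 member, Sdhb, had an unadjusted p under 0.05 (9.24% of all probes).

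Sdhb, the iron-sulphur subunit of complex II, had the smallest p of the members for a difference between the tissues in diet response. In aorta, WT chow arrays read 2.52, 2.99 and 2.75 and WT HFD arrays 2.54, 2.55 and 2.43 in experiments 1, 2 and 3. KO chow aorta arrays read 2.85, 2.88 and 2.92, and KO HFD arrays 2.43, 2.38 and 2.45. Sdhb was thus lower on HFD in every aorta pair but the WT pair of experiment 1, and the KO diet groups did not overlap. In muscle, WT chow arrays read 2.94, 2.96 and 2.99 and WT HFD arrays 2.88, 3.38 and 3.45. KO chow muscle arrays read 2.86, 3.13 and 3.05, and KO HFD arrays 2.79, 3.56 and 3.20. In muscle Sdhb was higher on HFD in experiments 2 and 3 and slightly lower in experiment 1. The diet difference was -0.35 ± 0.17 (SE) in aorta and 0.22 ± 0.16 in muscle. Their difference was -0.58 ± 0.20 (95% interval -1.02 to -0.13), and it did not pass the adjustment (limma adjusted p = 0.415). It was -0.55 after quantile normalization. The other complex II genes had diet differences in aorta of -0.31 (Sdha), 0.05 (Sdhc) and -0.07 (Sdhd).

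The aortic adipocyte marker sum, given above, was lower on HFD in both strains, and in the mean over strains all 7 tested adipocyte markers were below 0 (median -3.73, 1 past the adjusted threshold). The 5 brown adipocyte markers summed to between 3.60 and 6.81 in aorta on chow and between 3.95 and 4.54 on HFD. The 12 endothelial markers were all below 0 in aorta (median -0.61, 4 at an unadjusted p under 0.05) and the 6 fibroblast markers all above 0 (0.70, 3 unadjusted). In muscle, the fibroblast markers were again all above 0 (1.02, 4 unadjusted), the 5 tested macrophage markers had a median of 1.96 (2 unadjusted), and the 6 pericyte markers were all below 0 (-0.52, 5 unadjusted). The endothelial median there was -0.02. None of these 4 lists had a marker past the adjusted threshold. Fewer cells of a type and less RNA per cell cannot be told apart in such pools. The part of these cells in the members' diet differences was not tested.

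The strains were then compared within each diet and tissue. No member passed the adjusted threshold and none had an unadjusted p under 0.05 in any of the 4 comparisons. All probes gave an adjusted call at 0.0116% and an unadjusted one at 4.41% in chow aorta, 0.00387% and 1.15% in HFD aorta, 0% and 2.42% in chow muscle, and 0% and 3.15% in HFD muscle. The member medians of KO minus WT were 0.13 in chow aorta (60 of 66 above 0) and -0.10 in HFD aorta (53 below 0). They were 0.07 in chow muscle (44 above 0) and 0.15 in HFD muscle (58 above 0). All probes had medians of 0.03, 0.01, 0.01 and 0.03 in that order, with 53.7%, 51.8%, 52% and 54.2% above 0. The 70 cytosolic ribosomal protein genes had medians of 0.03 (41 above 0), -0.08 (59 below), 0.14 (62 above) and 0.22 (67 above). After quantile normalization, 18 of 37 complex I genes were above 0 in chow muscle (23 before) and 28 in HFD muscle (33 before). In chow aorta the median was 0.08 (55 above 0) without experiment 1. The markers moved there too, with all 12 endothelial (median 0.45) and all 7 adipocyte markers (0.53) above 0 and an erythroid median of 1.09, none past the adjusted threshold, and their part in the member median was not tested. The HFD aorta median was 0.06 without experiment 1, and the HFD muscle median was -0.08 without the KO HFD array of experiment 2. The diet response of KO minus that of WT had a member median of -0.23 in aorta (62 below 0) and 0.11 in muscle (43 above 0). Over all probes this response had medians of -0.02 and 0.02. No member had an unadjusted p under 0.05 for it (2.62% of all probes in aorta and 4.12% in muscle, with 0% and 0% adjusted). The aortic median was -0.01 without experiment 1, and the muscle median was -0.14 without the KO HFD array of experiment 2.

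Ndufc2, an accessory subunit in the membrane arm of complex I, had the largest aortic diet difference and the strain difference shared by most pairs. In aorta it read 4.49, 4.68 and 4.75 in WT chow, 4.33, 4.13 and 4.55 in WT HFD, 5.55, 4.86 and 5.14 in KO chow and 4.15, 4.35 and 4.67 in KO HFD (experiments 1, 2 and 3). Every HFD array lay below its chow pair in aorta, and the KO diet groups did not overlap. In muscle it read 5.41, 5.23 and 5.53 in WT chow, 4.91, 5.28 and 5.29 in WT HFD, 5.73, 5.63 and 5.75 in KO chow and 5.38, 5.76 and 5.78 in KO HFD. The array labelled KO was the higher one in 11 of 12 pairs, the exception being the HFD aorta pair of experiment 1. Among the 66 members the count ran from 3 of 12 (Ndufa11) to 11 of 12. The diet difference in KO aorta was -0.80 ± 0.29 (95% interval -1.49 to -0.11), and in KO aorta without experiment 1 it was -0.50. Over all 24 arrays, in a comparison added after the data were seen, KO exceeded WT by 0.35 ± 0.11 (95% interval 0.12 to 0.58, limma adjusted p = 0.597). Its fit had no block. The aorta and muscle samples of the same strain, diet and experiment counted as independent there, as they did in the 12 pairs. That comparison called 0.139% of all probes adjusted and 4.35% unadjusted, and of the members Ndufc2 alone at the unadjusted level and none at the adjusted one.

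**Figure D3:**
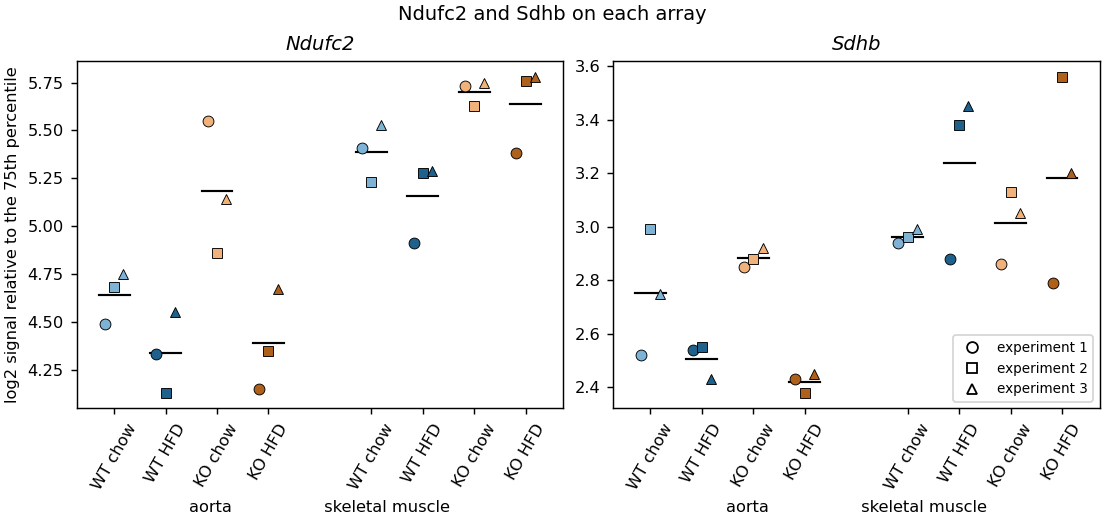
Log2 signal relative to the 75th percentile (y axis) of Ndufc2 and Sdhb on each of the 24 arrays, by group and tissue (x axis); symbols mark the 3 experiments and lines the group means. The aorta arrays of both genes lie mostly below the muscle arrays, and their KO HFD aorta arrays lie below all KO chow aorta arrays.

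Aorta and muscle were compared over all 24 arrays. On this scale the median of all 27387 probes tested was -0.27 for aorta minus muscle, and member differences are read relative to that shift. The member median was -0.28, which is -0.01 relative to it, with 35 members below the shift and 31 above. By experiment the member median was -0.04, -0.40 and -0.39 in experiments 1, 2 and 3, against -0.22, -0.26 and -0.28 over all probes. It lay above the median of all probes in experiment 1 and below it in experiments 2 and 3. Over all 24 arrays the respiratory genes as a group lay at the middle of the array, but the experiments differed in direction. Below 0 itself lay 63 of 66 members, 52 after quantile normalization and 36 in the deposited table, in which the tissues were scaled apart. The fit tested each difference against 0, not against the shift. In all, 7 of 66 members passed the adjusted threshold, all lower in aorta. Of all probes, 16.7% were called lower and 11.4% higher, so members were called lower less often than all probes in this fit. A further fit took the aorta and muscle samples of the same strain, diet and experiment as a pair (a replicate block). It called 37 members, all lower in aorta, where 39.3% of all probes were. It had no slide term, although the pairs of an experiment share slides.

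The 7 were Ndufc2, Ndufb7, Ndufa8 and Ndufs8 of complex I, Sdhb of complex II, and Uqcrb and Uqcrc2 of complex III. Ndufb7 and Ndufa8 are accessory subunits, Ndufs8 is an iron-sulphur core subunit, and Uqcrc2 is a core protein of complex III. Ndufc2 ranged from 4.13 through a median of 4.61 to 5.55 on the 12 aorta arrays and from 4.91 through 5.47 to 5.78 on the 12 muscle arrays. Only 2 aorta arrays reached into the muscle range. Its difference was -0.84 ± 0.16 (limma adjusted p = 0.000558), or -0.56 relative to the shift of all probes. Ndufb7 ranged over 3.62, 3.97 and 4.47 (lowest, median, highest) in aorta and 4.39, 4.57 and 5.16 in muscle, with 1 aorta array in the muscle range. Its difference was -0.65 ± 0.16 (adjusted p = 0.00453). Ndufa8 ranged over 4.53, 5.08 and 5.69 in aorta and 5.55, 5.68 and 6.63 in muscle, with a difference of -0.65 ± 0.19 (adjusted p = 0.0155). The remaining 4 had smaller excesses over the shift, of -0.36 (Ndufs8), -0.20 (Uqcrb), -0.18 (Sdhb) and -0.14 (Uqcrc2). Their differences from 0 had adjusted p from 0.0226 to 0.0483 by limma, and the excesses were not tested. Without experiment 1, 3 members were called (8.29% of all probes were lower), without experiment 3 there were 2 (14.2%), and without experiment 2 there were 0 (3.88%), where Ndufc2 differed by -0.77 (limma adjusted p = 0.0624). Under quantile normalization 4 members were called (14.3% of all probes were lower), and in the deposited table there was 1 (7.6%), with Ndufc2 at -0.63 and -0.57 (adjusted p = 0.0114 and 0.00982). Atp5l, the g subunit of the ATP synthase, differed by -0.57 ± 0.28 and was not called (adjusted p = 0.142), with its KO chow aorta value of experiment 3 left out as an outlier spot. Cell markers differed between the tissues as well. All 12 endothelial markers were lower in aorta (median -1.06), 10 of them past the adjusted threshold, as were all 13 muscle fibre markers. All 6 fibroblast markers were higher at that threshold, with 5 of 7 adipocyte and 4 of 5 brown adipocyte markers, and 1 adipocyte marker was lower. Only 3 of the 5 brown adipocyte markers were tested in muscle. Elovl3, well above background on 0 of 12 muscle arrays, and Ucp1 entered the joint fit through aorta alone. The part of those cells in the tissue differences was not tested.

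**Figure D4:**
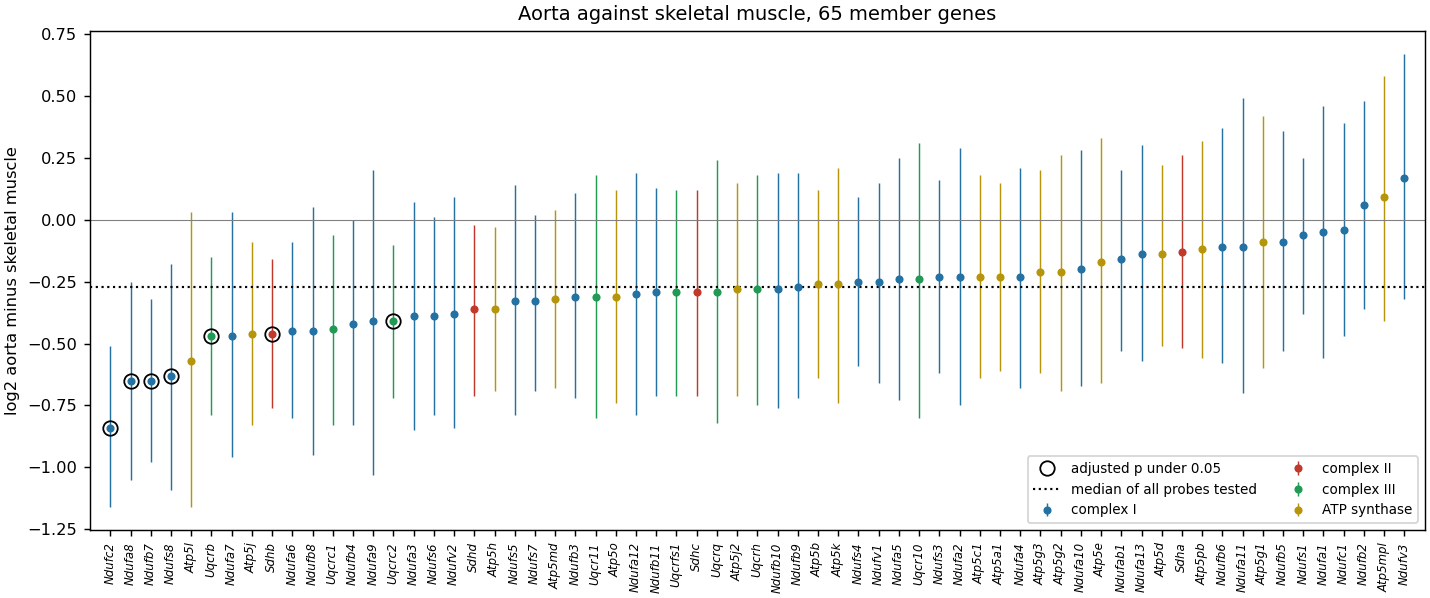
Difference between aorta and skeletal muscle (y axis, log2) with its 95% interval for 65 of the 66 member genes (x axis, in order of the difference), coloured by complex. Open rings mark the 7 members with an adjusted p under 0.05, and the dotted line is the median of all probes tested (-0.27), near which most members lie.

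The other subunits named by role lay between -0.17 (Uqcrc1) and 0.21 (Ndufs1) of the shift, which is as far from it as some of the called members. Over all uncalled members the range was -0.29 (Atp5l) to 0.45 (Ndufv3). Ndufs1 differed between the tissues by -0.06 ± 0.15, Ndufv1, which binds NADH, by -0.25 ± 0.19, and Ndufab1, the acyl carrier protein of mitochondria, by -0.16 ± 0.18. Ndufa4, now counted with cytochrome c oxidase, differed by -0.23 ± 0.21. Among complex II genes Sdha differed by -0.13 ± 0.19, Sdhc by -0.29 ± 0.20 and Sdhd by -0.36 ± 0.16. In complex III, Uqcrc1 differed by -0.44 ± 0.19, Uqcrfs1 by -0.29 ± 0.20 and the hinge protein gene Uqcrh by -0.28 ± 0.22. The ATP synthase genes Atp5a1 and Atp5b differed by -0.23 ± 0.18 and -0.26 ± 0.18. Atp5g1, Atp5g2 and Atp5g3, 3 genes that encode the same mature c subunit, differed by -0.09 ± 0.24, -0.21 ± 0.23 and -0.21 ± 0.20. In muscle their diet differences were 0.37 ± 0.21, 0.23 ± 0.22 and 0.18 ± 0.19, and in aorta 0.37 ± 0.22 (Atp5g1, without its KO chow value of experiment 3, an outlier spot), -0.13 ± 0.19 and 0.07 ± 0.23. At their brightest probes none of these genes passed the adjusted threshold, the smallest adjusted p being 0.081 (Uqcrc1, limma). The dimmer Uqcrc1 probe differed by -0.53 ± 0.19 and passed it (limma adjusted p = 0.0486). Signal from related pseudogenes at these probes was not tested.

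Of the member genes, 16 had more than 1 probe. The 20 other probes had the opposite sign of the brightest in 6 cases for the mean aortic diet difference, 5 for muscle and 3 for the tissue difference. Ndufv3 was the plainest case, with tissue differences of 0.17 at its brightest probe and -0.45 and -0.46 at the dimmer ones. Ndufa8, by contrast, gave -0.65 and -0.80, both past the adjusted threshold, and Uqcrc1 gave -0.44 and -0.53, of which the dimmer alone passed. For the mean muscle diet difference, some dimmer probes moved further than any brightest probe. These were probes of Ndufab1 (0.70 ± 0.15, against 0.14 at the brightest), Ndufv3 (-0.70 ± 0.19, against 0.20) and Sdha (-0.69 ± 0.15, against -0.06). None of them passed the adjusted threshold (limma adjusted p = 0.124, 0.158 and 0.126).

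Neighbouring pathways were read from lists of fixed membership. Of 16 cytochrome c oxidase genes, 3 were lower in aorta at the adjusted threshold and 1 was higher, with a median tissue difference of -0.35. The muscle-type isoform Cox6a2 ranged over -2.06, -0.92 and 0.88 in aorta and 0.57, 2.11 and 4.16 in muscle, a difference of -3.25 ± 0.58 (limma adjusted p = 0.00038). Of 9 tested carrier and uncoupling genes, 3 were lower and 1 was higher. The higher one was Ucp1, the uncoupling protein of brown fat, which was well above background on 12 of 12 aorta arrays and 2 of 12 muscle arrays. It ranged over 0.80, 2.58 and 4.89 in aorta and -9.45, -7.64 and -5.31 in muscle. It entered the fit through aorta alone, and as its muscle values lay mostly at background no size of the difference is given. Ucp1 is itself on the brown adipocyte list, which summed to between -0.76 and 2.18 in muscle. Of 15 tricarboxylic acid cycle and pyruvate dehydrogenase genes, 0 were lower and 1 was higher, the latter being Pdha1 (0.74 ± 0.19). Of 78 mitochondrial ribosomal protein genes 6 were lower and 0 higher (median -0.14), of 31 assembly factors 1 was lower and 0 higher (median -0.17), and of 16 regulators of mitochondrial biogenesis 2 were lower and 2 higher. Cycs and Cyc1, for cytochrome c and cytochrome c1, were not called, with a median of -0.41. Cytosolic ribosomal protein genes had 1 of 70 lower and a median of -0.26.

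For the mean diet difference, none of these lists had a member past the adjusted threshold in either tissue. At an unadjusted p under 0.05, aorta had 1 lower of 16 cytochrome c oxidase genes, 1 lower of 30 assembly factors, 1 higher and 1 lower of 16 biogenesis regulators, and 1 higher and 1 lower of 78 mitochondrial ribosomal protein genes, against 15.1% of all probes in either direction. Muscle had 1 lower oxidase gene, 3 higher of 31 assembly factors, 1 higher and 2 lower regulators, and 5 higher and 1 lower mitochondrial ribosomal protein genes, against 16.4% of all probes. The median was -0.23 for the tricarboxylic acid cycle list in aorta (13 of 15 below 0) and 0.10 in muscle (11 above 0). For cytochrome c oxidase it was -0.08 in aorta (13 of 16 below 0) and 0.15 in muscle (12 above 0). Mitochondrial ribosomal protein genes had medians of 0.03 and 0.16. Cox8b (-1.52 ± 0.47) and Cox7a1 (-0.90 ± 0.44), isoforms found in muscle and brown fat, had the largest aortic differences of the oxidase list and were not called (limma adjusted p = 0.247 and 0.381). The coactivator gene Ppargc1a had the largest muscle difference among the regulators (-1.60 ± 0.59, limma adjusted p = 0.256).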

How the data were processed

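Per the labels and the study's methods, RNA of each sorted pool was amplified, labelled with Cy3 and hybridised to Agilent whole mouse genome arrays, and the authors read them with Agilent Feature Extraction (version 10.5.1.1 in the file headers; 9.1 in the submitters' processing notes). The deposited scanner files hold the processed signal intensity of each spot, after background subtraction, and the spot and local background median intensity. A deposited table holds log2 values of the same arrays. On each array these equalled the scaled log2 values used here plus a constant, which was close to the same for the arrays of a tissue and differed between the tissues.

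Intensities of 43379 non-control spots were divided by the array's 75th percentile (2390 to 5938) and put on the log2 scale. Outlier spots were left out and spots of a probe averaged, which gave 41174 probes. Between 59.5% and 75.7% of spots per array were well above background, and the number of arrays limits the precision. A probe entered a fit when it was well above background throughout 1 group or more: 25865 probes in aorta, 25682 in muscle and 27387 in the joint fits. Accessions were matched to RefSeq symbols without versions (27479 probes). Differences were fitted with limma 3.58.1 in R 4.3.3 and adjusted by Benjamini-Hochberg over all probes tested, with the fits tested on simulated data. Diet fits had each strain and experiment pair as a block. Strain fits had group means, and the tissue fit had slide as a random block (correlation 0.28). Between HFD and chow arrays of the same strain and experiment, deviations from the group means correlated at r from 0.01 to 0.46 over 12 pairs. Several pairs were thus near 0. The 2 arrays of a pair also share a slide, so pair and slide cannot be told apart in this r. The pairing comes from the experiment number in the labels. Each slide held the 4 groups of 1 tissue and experiment. Experiment 1 was scanned in another session than experiments 2 and 3, so scan session and experiment cannot be told apart.

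Named genes were those past an adjusted p of 0.05, the 5 with the largest mean diet and tissue differences, the smallest p of each diet comparison, and a list of core subunits. Members, lists and tests were chosen with earlier results of these data known. Alternatives were another background correction, quantile normalization, the deposited table, other filters on dim probes, other blocks, each experiment left out, the mean over a gene's probes and the methods' t-test. The strain comparison over 24 arrays and leaving out the KO HFD muscle array of experiment 2 were chosen after seeing the data. The values of 1 member, which is counted in the totals, are not reported here singly.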

Additional observations from a re-analysis of the deposited data

How the results depend on the processing

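Genes named for size or p kept their direction in that comparison under every alternative fitted gene by gene. Subunits named by role were not followed in this way. The mean over a gene's probes was taken for member medians alone, and the probes of Ndufv3 differed in sign, as given above. Between aorta and muscle, 7 members were called, all lower in aorta, where 16.7% of all probes were. The count lower in aorta was 4 after quantile normalization (14.3% of all probes), 1 for the deposited values (7.6%), 16 with no slide block (30.1%) and 11 with scan session as a term (22.4%). With an experiment left out it was 0 to 3, namely 3 without experiment 1 (8.29%), 0 without experiment 2 (3.88%) and 2 without experiment 3 (14.2%). It was 6 without the KO HFD muscle array of experiment 2 (15.9%). With the aorta and muscle samples of the same strain, diet and experiment as a replicate block, 37 members were called (39.3%). That fit had no slide term, so pairs of an experiment, which share slides, counted as independent. The tissue median was -0.02 in the deposited table. After quantile normalization the median for KO minus WT in chow muscle was 0.01, and for the diet response of aorta minus muscle -0.13. Over the settings that left out an experiment or the KO HFD muscle array of experiment 2, medians ranged from -0.14 to 0.26 for the diet response of KO minus WT in muscle, from -0.08 to 0.28 for KO minus WT in HFD muscle, and from -0.21 to -0.07 for the diet response of aorta minus muscle, with the lowest, lowest and highest value without that array. The replicate block changed no other call: without it, or with slide as the block, the diet and strain comparisons called 0 members. The methods' t-test, after Benjamini-Hochberg, also called 0 members in each of the 4 diet comparisons, and at its unadjusted threshold 0, 2, 2 and 0 in WT aorta, KO aorta, WT muscle and KO muscle, where 4.73%, 6.77%, 8.28% and 5.04% of all probes passed. Scan session as a term was not run for the diet response of aorta minus muscle, since it is nested in the pairs.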
